A study of Homo sapiens with 6 samples.

Results

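Mitochondrial ribosomal protein transcripts were followed in the human osteosarcoma line U2OS (U20S in the sample titles) after siRNA against the histone variants H3.Y and H3.X. The members are the probe sets whose single gene symbol begins with MRPL or MRPS and a number, pseudogenes left out. They numbered 77 of the 33297 probe sets on the arrays and stood for 73 of the 18417 named genes, 48 of the large subunit (MRPL) and 25 of the small subunit (MRPS). MRPL20 had 2 probe sets and MRPS18B 3 with identical values on every array, so the members gave 74 distinct readings, 49 MRPL and 25 MRPS, and all counts below are of readings. Another 4 genes that fit the rule, MRPL51, MRPS6, MRPS24 and MRPS28, are read by probe sets that also name other genes and were not counted.

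The arrays formed 3 groups of 2. One received siRNA that targets H3.X together with H3.Y (the combined knockdown), one received siRNA for H3.Y alone, and the controls received siRNA against luciferase. All cells were transfected repeatedly with oligofectamine and harvested 4 days after transfection, and none of the groups was left without siRNA. How the combined siRNA was composed is not stated, nor whether the biological replicates named in the labels were separate cultures, so the p-values speak only of how far these arrays spread. The number of arrays limits the precision of every value.

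The mitochondrial ribosome translates the few proteins encoded by mitochondrial DNA, all of them subunits of the oxidative phosphorylation complexes. Its RNAs come from the mitochondrial genome, while its proteins are encoded in the nucleus, made in the cytosol and imported. Some have counterparts in the bacterial ribosome, and others are specific to mitochondria. Proliferating cells keep these genes active as part of mitochondrial growth.

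Each array gave a log2 expression value per probe set, and array medians lay between 5.10 and 5.14. Across probe sets, r was 0.986 to 0.992 within groups and 0.978 to 0.987 between them. No probe set with a single gene symbol was named for the siRNA targets (0 for H3Y1 or H3Y2). Probe sets that name several genes were not searched for them, so the knockdown itself was not read here. Of the osteoblast lineage and mesenchymal markers, 8 of 8 genes were measured, and 7 of the 8 readings lay above the median of all values in luciferase cells. Of the 74 member readings, 72 had a mean above that median, all but MRPL13 and MRPS18C. The gap between both arrays of a group exceeded 0.5 log2 units in 4 of 222 cases. They were MRPS18C in luciferase cells (3.61 and 4.68), MRPL17 (7.49 and 8.20) and MRPL15 (7.10 and 7.61) after H3.Y siRNA, and MRPL42 in the combined knockdown (6.09 and 6.61).

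The combined knockdown was set against luciferase siRNA to ask how transcripts respond when both variants are targeted. Of the 74 readings, 66 (89.2%) were lower on average in the combined knockdown, where 49.8% of all probe sets were, and 8 were higher. After a further quantile normalization the count was 63. Their median difference was log2 -0.15, with -0.18 and -0.16 on the 2 knockdown arrays, against 0.001 for all probe sets. MRPL42, MRPL35, MRPL50 and MRPL20, all of the large subunit, fell past an adjusted p of 0.05 in limma, and 0 members rose past it. These 4 were 5.41% of the readings, where 0.985% of all probe sets were called lower and 0.859% higher. Among probe sets with 1 symbol and a mean above the array median, a population closer to the members in level, 2.15% were called lower. On 50 readings (67.6%) both combined knockdown arrays lay below both luciferase arrays, against 24% of all probe sets, and on 3 readings they lay above, against 23.4%. In the population closer in level, each of these shares was 32.2%. At an unadjusted p under 0.05, 18 readings were lower and 0 higher, against 8.12% and 7.16% of all probe sets.

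MRPL42, a large subunit protein without a bacterial counterpart, had log2 values of 6.09 and 6.61 in the combined knockdown, against 8.33 and 8.51 in luciferase cells. It fell 4.19-fold (log2 -2.07 ± 0.21 SE, n = 2 per group, limma adjusted p = 0.017), with arrays that did not overlap. Among differences of all probe sets in this comparison its fall ranked 13 from the lowest. MRPL35, which has a bacterial counterpart, stood at 6.44 and 6.53 in the combined knockdown, against 7.90 and 8.17 in luciferase cells. Its fall was 2.92-fold (log2 -1.55 ± 0.19, limma adjusted p = 0.023). MRPL50, a mitochondria-specific protein of the large subunit, lay at 7.02 and 6.86, against 8.46 and 8.35 in luciferase cells. It fell 2.76-fold (log2 -1.46 ± 0.16, limma adjusted p = 0.019). In these 3 genes the groups were set apart by far more than the gap between arrays of a group.

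MRPL20, the counterpart of a bacterial protein that binds the large ribosomal RNA early in assembly, gave 7.45 and 7.62 in the combined knockdown, against 8.44 and 8.28 in luciferase cells. It fell 1.77-fold (log2 -0.83 ± 0.14, limma adjusted p = 0.046), close to the threshold. With a replicate block in the fit, or with only the 4 arrays compared, MRPL20 was not called. The gap from MRPL20 to MRPL50 was wide, and no other member came between them. Just outside the threshold lay MRPL24, whose bacterial counterpart sits by the exit of the peptide tunnel, with 8.20 and 8.26, against 8.98 and 8.90 in luciferase cells (log2 -0.71 ± 0.13, limma adjusted p = 0.062). MRPS9, of the small subunit, gave 7.007 and 6.995, against 7.60 and 7.72 (log2 -0.66 ± 0.13, limma adjusted p = 0.065). Neither pair of groups overlapped. Both were called when the fit was limited to probe sets above the array median or given an intensity trend.

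**Figure D1:**
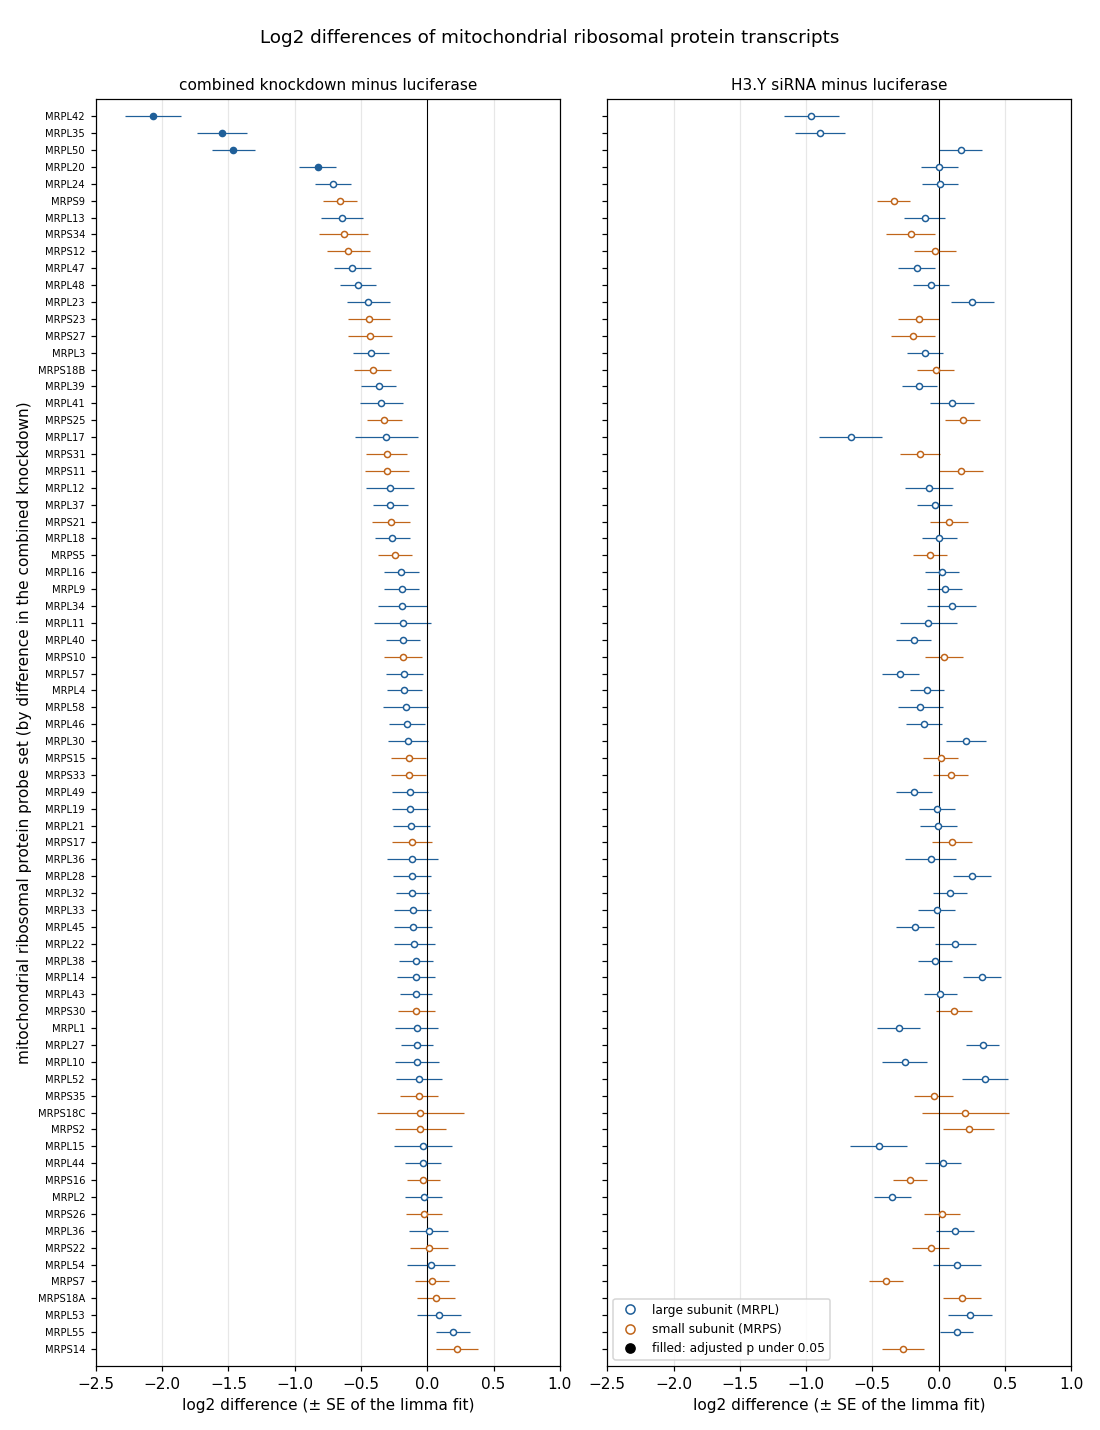
Log2 difference of each distinct mitochondrial ribosomal protein reading from luciferase siRNA (x axis, log2 units, bars are the SE of the limma fit), in the combined knockdown on the left and after H3.Y siRNA on the right, with genes ordered by the combined knockdown and the large and small subunits in blue and orange. On the left 66 of 74 points lie below 0 and the filled points, which passed an adjusted p of 0.05, are MRPL42, MRPL35, MRPL50 and MRPL20, while on the right 40 lie below 0 and 0 are filled.

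At the other end of the order, the members with the most positive differences in the combined knockdown were small and uncalled. MRPS14, a small subunit protein with a bacterial counterpart, gave 7.54 and 7.58 in the combined knockdown, against 7.19 and 7.49 in luciferase cells (log2 0.22 ± 0.16). MRPL55 gave 6.31 and 6.41, against 6.13 and 6.21 (0.19 ± 0.13). These 2 readings, with MRPS18A (0.06 ± 0.14), were the 3 whose combined knockdown arrays both lay above the luciferase arrays. MRPL53 (0.08 ± 0.17) and MRPL54 (0.03 ± 0.18), of the stalk that recruits translation factors, and MRPS7 (0.03 ± 0.13), which organises the head of the small subunit, overlapped with luciferase. The adjusted p of these 6 genes lay between 0.60 and 0.98 in limma. MRPL36 was the 1 member gene with different values on 2 probe sets, at 0.01 ± 0.15 and -0.11 ± 0.19, so both of its readings overlapped with luciferase.

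The H3.Y siRNA arrays were set against luciferase to ask how transcripts differ after siRNA for H3.Y. As a group, the members showed no common direction. Of the 74 readings, 40 were lower and 34 higher, where 46.6% of all probe sets were lower, and the count of lower readings ran from 33 after a further quantile normalization to 51 without luciferase replicate 2. The median difference was log2 -0.02, with -0.0064 and -0.015 on the 2 knockdown arrays, against 0.02 for all probe sets. In limma 0 members were called, where 0.279% of all probe sets were, and at an unadjusted p under 0.05, 6 readings were lower and 1 was higher, against 7.66% and 6.21% of all probe sets. On 19 readings both H3.Y siRNA arrays lay below both luciferase arrays, against 20% of all probe sets, and on 13 they lay above, against 21.7%. Among probe sets with 1 symbol and a mean above the array median, these shares were 29.0% and 25.1%. At an unadjusted limma p under 0.05, 13.7% of them were lower. Both comparisons use the same luciferase arrays, so their values are given side by side only.

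The lowest member after H3.Y siRNA was again MRPL42, with 7.33 and 7.59, against 8.33 and 8.51 in luciferase cells (log2 -0.96 ± 0.21, limma adjusted p = 0.13). MRPL35 gave 6.92 and 7.35, against 7.90 and 8.17 (log2 -0.90 ± 0.19, limma adjusted p = 0.13). In both genes the H3.Y siRNA arrays lay below the luciferase arrays and above the combined knockdown arrays, without overlap. MRPL50 had no such step. It stood at 8.73 and 8.41 after H3.Y siRNA, overlapping with luciferase at 8.46 and 8.35 (log2 0.17 ± 0.16, limma adjusted p = 0.73). MRPL20 overlapped too, with 8.40 and 8.33, against 8.44 and 8.28 in luciferase cells (0.00 ± 0.14), as did MRPL24, with 8.86 and 9.04, against 8.98 and 8.90 (0.01 ± 0.13).

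**Figure D2:**
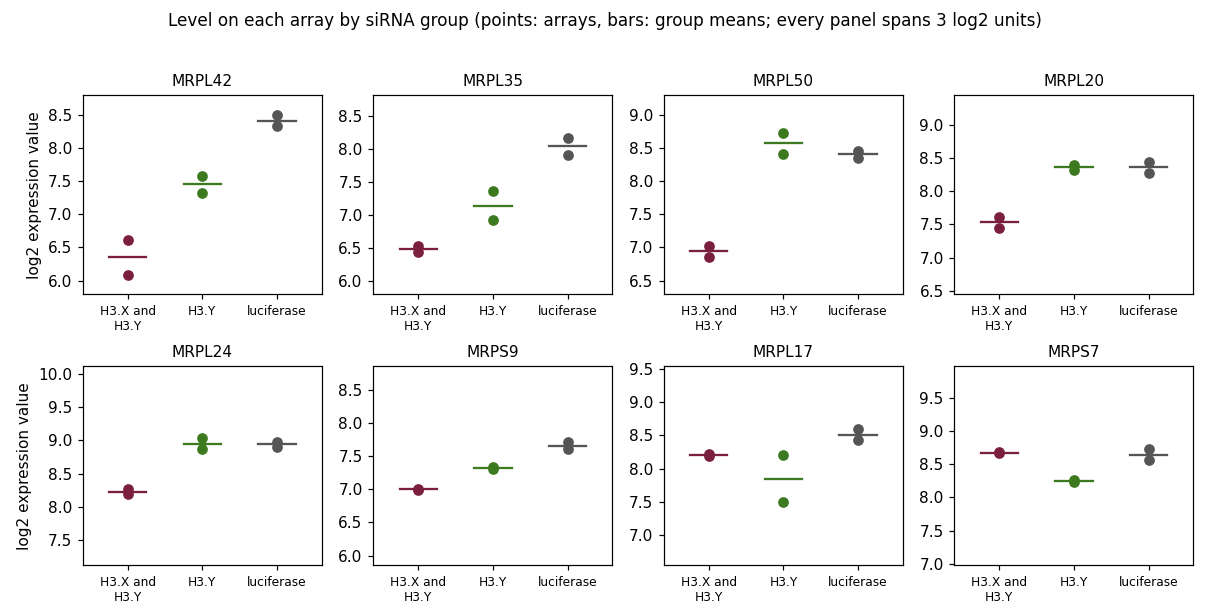
Log2 expression value of 8 member genes on each array (points) with the group mean (bar), for the combined knockdown, H3.Y siRNA and luciferase siRNA from left to right, every panel spanning 3 log2 units. MRPL42 and MRPL35 are lowest in the combined knockdown, with H3.Y siRNA between it and luciferase, MRPL50, MRPL20 and MRPL24 are low in the combined knockdown arrays with H3.Y siRNA near luciferase, and MRPS7 is lowest after H3.Y siRNA.

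Other members leaned lower after H3.Y siRNA without passing the test. MRPL17, by the exit of the peptide tunnel, gave 7.49 and 8.20, against 8.60 and 8.43 in luciferase cells (log2 -0.67 ± 0.24). Its arrays after H3.Y siRNA lay far apart, so the difference rests mostly on replicate 1. MRPS7 gave 8.26 and 8.23, against 8.72 and 8.56 (-0.40 ± 0.13). MRPL15 differed by -0.45 ± 0.22 and MRPL2, whose bacterial counterpart lies at the peptidyl transferase centre, by -0.35 ± 0.14. In all 4 genes the H3.Y siRNA arrays lay below the luciferase arrays, with limma adjusted p between 0.25 and 0.43. The most positive differences were those of MRPL52 (0.35 ± 0.17), MRPL27, another protein whose bacterial counterpart reaches the peptidyl transferase centre (0.33 ± 0.12), MRPL14 (0.33 ± 0.14), MRPL23 (0.25 ± 0.16), MRPL28 (0.25 ± 0.14) and MRPL53 (0.23 ± 0.17). MRPL27 was the steadiest of these, with 9.19 and 9.20, against 8.84 and 8.88. None of these 6 passed, with limma adjusted p between 0.31 and 0.61.

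The combined knockdown was also set directly against H3.Y siRNA, which asks how transcripts differ between these siRNA treatments. Here 60 of 74 readings were lower in the combined knockdown, where 54.4% of all probe sets were, with a median of log2 -0.21, against -0.03 for all probe sets. MRPL50 fell 3.09-fold relative to H3.Y siRNA (log2 -1.63 ± 0.16, limma adjusted p = 0.0082), MRPL42 2.15-fold (-1.11 ± 0.21, adjusted p = 0.040), MRPL20 1.78-fold (-0.83 ± 0.14, adjusted p = 0.030) and MRPL24 1.65-fold (-0.72 ± 0.13, adjusted p = 0.038). These 4 readings (5.41%) were called lower and 0 higher, where 1.92% of all probe sets were called lower and 2.74% higher. Among the 11907 probe sets with 1 symbol and a mean above the array median, 447 (3.75%) were called lower and 687 higher. That share is closer to the members' share. MRPL35 differed by -0.65 ± 0.19 (adjusted p = 0.12) and MRPL23, at 7.24 and 7.35 against 8.15 and 7.84 after H3.Y siRNA, by -0.70 ± 0.16 (adjusted p = 0.069). MRPL42 was thus called lower in the combined knockdown against both other groups, as were MRPL50 and MRPL20. Both comparisons use the same combined knockdown arrays, so these calls do not stand apart from each other.

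Between the knockdowns, 48 readings had combined knockdown arrays below both H3.Y siRNA arrays, against 25.4% of all probe sets. Among probe sets with 1 symbol and a mean above the array median, the share was 31.3%. For 38 readings, 24 of them MRPL, the combined knockdown arrays lay below all 4 other arrays, where 12.9% of all probe sets did. Of 14 readings that were higher in the combined knockdown than after H3.Y siRNA, the 6 with the largest differences were MRPS14 (0.49 ± 0.16), MRPS7 (0.43 ± 0.13), MRPL15 (0.42 ± 0.22), MRPL17 (0.35 ± 0.24), MRPL2 (0.32 ± 0.14) and MRPL1 (0.22 ± 0.16). None of these passed, with limma adjusted p between 0.13 and 0.57. MRPS7 had 8.68 and 8.67 in the combined knockdown, near luciferase at 8.72 and 8.56, against 8.26 and 8.23 after H3.Y siRNA.

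By subunit, the medians in the combined knockdown against luciferase were close. Of 49 large subunit readings, 45 were lower, with a median of log2 -0.15, and of 25 small subunit readings, 21 were lower, with a median of -0.14. The means stood further apart, at -0.29 for the large and -0.21 for the small subunit, and without MRPL42, MRPL35 and MRPL50 the large subunit's mean was -0.20. All 4 called readings were of the large subunit and 0 of the small. The lowest of the small subunit were MRPS9, MRPS34 (-0.63 ± 0.19) and MRPS12 (-0.60 ± 0.16), none called. MRPS12, whose bacterial counterpart sits at the decoding centre, gave 7.11 and 7.13, against 7.89 and 7.53 in luciferase cells. After H3.Y siRNA both medians were -0.02, and between the knockdowns they were -0.20 for the large and -0.22 for the small subunit. The difference between subunits was not tested.

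The symbols do not always give the place in the ribosome, since MRPS30 and MRPS18A sit in the large subunit of the human structure. With these 2 moved, the medians in the combined knockdown against luciferase were -0.15 over 51 large and -0.18 over 23 small subunit readings. Members with a bacterial counterpart (45 readings) and mitochondria-specific ones (28 readings) had medians of -0.15 and -0.16, and each class held 2 of the called genes. The differences spread with an SD of 0.37 over the members, the same as over all probe sets. Over probe sets with 1 symbol and a mean above the array median, closer to the members in level, the SD was 0.44. Without MRPL42, MRPL35 and MRPL50 the SD over the members was 0.21. Without these 3 genes, 63 of 71 readings were lower and the differences ran from -0.83 (MRPL20) to 0.22 (MRPS14).

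Members were also grouped by place in the ribosome, a grouping made after their values were seen. All 7 proteins by the exit of the peptide tunnel were lower in the combined knockdown than in luciferase cells, with a median of log2 -0.31. They ran from MRPL24 at -0.71 through MRPL47 (-0.57 ± 0.14) and MRPL23 (-0.45 ± 0.16) to MRPL22, MRPL32 and MRPL45 at -0.10 to -0.11, and 0 passed the test. The 7 proteins of the central protuberance were all lower as well, at a median of -0.16, led by MRPL48 (-0.52 ± 0.14). The 5 stalk proteins had 3 lower and 2 higher, at a median of -0.08. After H3.Y siRNA the medians of the exit tunnel, central protuberance and stalk proteins were 0.01, -0.06 and -0.08.

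Promoters of the members were described beside those of all protein-coding genes. A link between promoter letters and the expression differences was not tested, and promoters of the other lists were not counted. RefSeq (GRCh38.p14) gave a promoter, from 250 bases before to 50 bases after the first listed start, for 66 of the 73 genes, all but MRPL2, MRPL10, MRPL13, MRPL15, MRPL21, MRPL23 and MRPL35. Of these, 42.4% held CCGGAAG, the core bound by ETS factors such as GABPA, on either strand, against 14.2% of 15842 protein-coding promoters. ATGGCGG, a core bound by YY1, was in 34.8%, against 7.63%, and GCATGCG, a core of NRF1, in 10.6%, against 5.14%. At least 1 of the 3 was in 68.2%, against 23.6%, and over promoters of all genes the shares were 10.7%, 5.72%, 4.13% and 18.0% in the same order. ATGGCGG lay on the gene's own strand within the 50 bases after the start in 27.3% of members, against 3.69% of protein-coding genes. All cores were searched on both strands; GCATGCG partly matches its own reverse complement, and each promoter was counted once per core. The letters ATGGCGG contain ATG and can also be a translation start, and whether YY1 binds there was not tested. Stretches of 30 bases are shown for members at both ends of the order in the combined knockdown, 5′ to 3′ on the gene's strand, with the ATGGCGG match in capitals.
MRPL42: attgaaacaagATGGCGGgttcgtggtgag
MRPL50: tctcatcgaagATGGCGGcgcgatctgtgt
MRPS9: ccacagctaacATGGCGGcgccctgtgtgt
MRPS14: tagcggacaacATGGCGGccttcatgctgg
These lie at chr12:93467514-93467543 (plus strand), chr9:101398574-101398603 (minus strand), chr2:105038082-105038111 (plus strand) and chr1:175023390-175023419 (minus strand). The match begins 11, 26, 24 and 17 bases after the start. It was thus present in MRPL42 and MRPL50, which fell, and in MRPS14, which had the most positive difference.

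The CCGGAAG match, in capitals below, began before the start in MRPL20, which fell, and in MRPS12 and MRPL47, which were lower without passing. It also began before the start in MRPL53, which overlapped with luciferase. In MRPS12 the match ran across the start.
MRPL20: cgaccttcgccCCGGAAGtatcgcaggggc
MRPS12: acggatagcgcCCGGAAGaggctagaagct
MRPL47: ggcttgagacgCCGGAAGtgacgctatcgt
MRPL53: gcagccggcggCCGGAAGtctatcccgcag
Their places are chr1:1407319-1407348 (minus strand), chr19:38930928-38930957 (plus strand), chr3:179604659-179604688 (minus strand) and chr2:74472734-74472763 (minus strand). A match is a description of these letters and not a binding site. Transcripts of the factors did not pass the test in the combined knockdown against luciferase. YY1 differed by log2 0.11 ± 0.17, NRF1 by -0.53 ± 0.15 (limma adjusted p = 0.16) and GABPA by 0.38 ± 0.15 and -0.0023 ± 0.20 on its 2 probe sets.

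**Figure D3:**
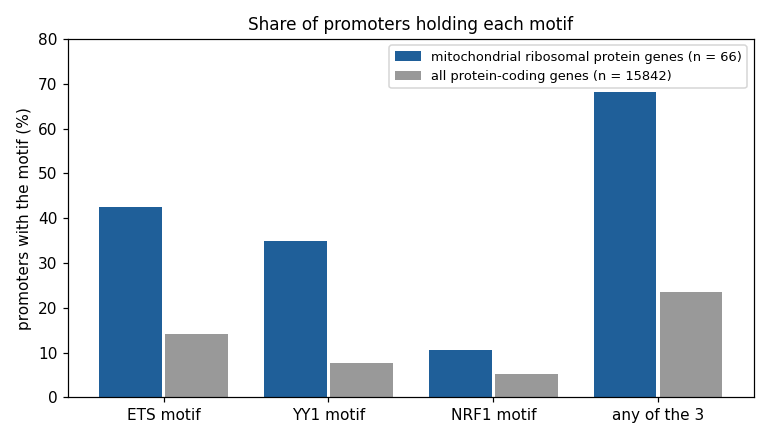
Share of promoters (y axis, percent) that hold the ETS, YY1 or NRF1 core or any of them, for 66 mitochondrial ribosomal protein genes (blue) and 15842 protein-coding genes (grey). The blue bar is the taller in each pair, at 42.4% against 14.2% for the ETS core and 34.8% against 7.63% for the YY1 core.

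Other genes of mitochondrial translation were set beside the members. Of 4 further subunits of the mitochondrial ribosome measured, 0 were called, and the largest difference in the combined knockdown against luciferase was that of DAP3, a small subunit GTP-binding protein (-0.36 ± 0.19). Of 17 readings of translation factors, 13 were lower and 0 called, with a median of -0.16. MRRF, the ribosome recycling factor, gave 6.67 and 6.65, against 7.41 and 7.35 in luciferase cells (-0.72 ± 0.13, limma adjusted p = 0.055), and it fell relative to H3.Y siRNA at 7.43 and 7.29 (-0.70 ± 0.13, adjusted p = 0.037). Of 29 readings of ribosome assembly factors, 18 were lower and 0 called, with a median of -0.09, and the largest single difference was on 1 of the 2 METTL15 probe sets (-0.52 ± 0.35, luciferase arrays 6.20 and 7.03), while the other gave -0.09 ± 0.24. NGRN, which takes part in mitochondrial ribosomal RNA processing, was higher in the combined knockdown than after H3.Y siRNA (0.81 ± 0.13, adjusted p = 0.024). The aminoacyl-tRNA synthetases had 11 of 20 readings lower, a median of -0.03 and 0 called, with HARS2 at 0.53 ± 0.12.

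Among 16 genes of mitochondrial transcription and the nucleoid, 11 were lower and 0 called in the combined knockdown against luciferase. TFB2M, a factor that starts mitochondrial transcription, gave 5.998 and 6.13, against 7.55 and 7.27 (-1.34 ± 0.25, limma adjusted p = 0.058), and it fell relative to H3.Y siRNA (-1.51 ± 0.25, adjusted p = 0.028). Protein import had 22 of 25 readings lower, a median of -0.25 and 0 called. Relative to H3.Y siRNA, the import genes TIMM17A (-1.003 ± 0.13), TIMM10 (-0.85 ± 0.17) and TIMM13 (-0.78 ± 0.14) were lower, with limma adjusted p between 0.017 and 0.047. For TIMM17A the H3.Y siRNA group itself lay above luciferase (0.94 ± 0.13, not called), so its difference is not a fall of that size from luciferase. After H3.Y siRNA against luciferase 0 genes of these lists were called. The value furthest from 0 in each list was that of GRSF1 among assembly factors (-0.95 ± 0.31), TIMM17A in import (0.94 ± 0.13), SARS2 among synthetases (-0.48 ± 0.14), MTIF2 among translation factors (-0.47 ± 0.15), POLG in transcription and the nucleoid (0.33 ± 0.15), DAP3 among further subunits (0.33 ± 0.19) and NRF1 among the regulators (-0.32 ± 0.15). GRSF1 gave 7.42 and 8.42 after H3.Y siRNA, against 8.87 and 8.88 in luciferase cells, so its difference rests mostly on replicate 1. CARS2 differed most among the synthetases between the knockdowns (-0.65 ± 0.14), and among the further subunits DAP3 did (-0.69 ± 0.19).

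The downward shift in the combined knockdown was shared with other lists. Cytosolic ribosomal protein readings, 89 of 101 of them lower, had a median of log2 -0.16, and nuclear oxidative phosphorylation subunits, 61 of 84 lower, had a median of -0.13, against -0.15 for the members. Called lower were 3 of 101 (2.97%) and 1 of 84 (1.19%), beside the 0.985% of all probe sets and the 2.15% of named probe sets above the array median. RPL39L (-1.22 ± 0.13), RPS24 (-0.86 ± 0.13) and NDUFB6, of complex I (-1.24 ± 0.16), fell, with limma adjusted p between 0.017 and 0.036. RPL27A fell on 1 probe set (-1.06 ± 0.13) and gave -0.02 and -0.23 on its others. Relative to H3.Y siRNA, the medians of the members, cytosolic ribosomal proteins and oxidative phosphorylation subunits were -0.21, -0.16 and -0.12. In bulk RNA, fewer cells of a type and less RNA per cell cannot be told apart.

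**Figure D4:**
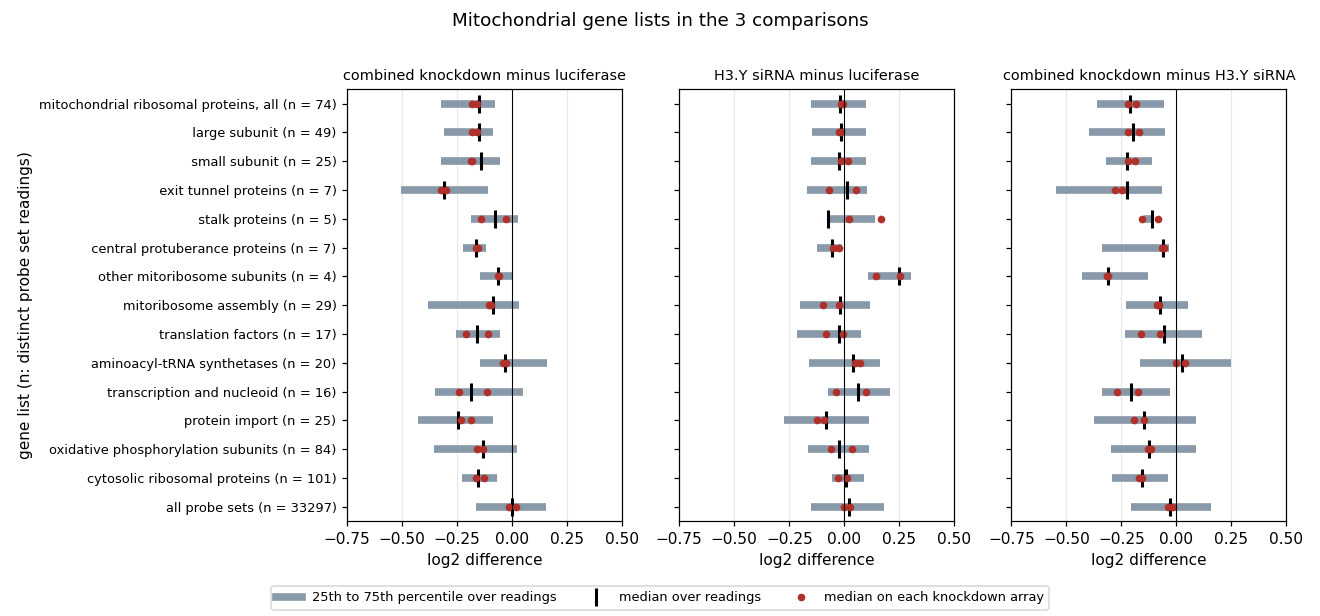
Log2 differences of gene lists in the 3 comparisons (x axis, log2 units), with grey bars from the 25th to the 75th percentile over readings, black ticks at the median and red points at the median on each knockdown array. In the left panel the members sit at -0.15, beside cytosolic ribosomal proteins at -0.16 and oxidative phosphorylation subunits at -0.13, while aminoacyl-tRNA synthetases (-0.03) and all probe sets (0.001) sit near 0, and red points can both lie to 1 side of a tick because a median of means is not a mean of medians.

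Markers of cell types were read in the same groups. Epithelial markers had 10 of 10 readings (8 genes) higher in the combined knockdown than in luciferase cells, of which both EPCAM readings were called (2.25 ± 0.18 and 2.73 ± 0.31, limma adjusted p of 0.013 and 0.021). Their summed signal on the linear scale ranged from 6200 to 6633 in the combined knockdown, 2814 to 4314 after H3.Y siRNA and 4537 to 5748 in luciferase cells. Of these 10 readings, 3 lay below the array median in the combined knockdown, 6 after H3.Y siRNA and 5 in luciferase cells. For blood markers (7 readings) the sums were 288 to 409, 689 to 913 and 407 to 495, and 6 of 7 readings lay below the array median in each group. In the combined knockdown against luciferase, 3 blood readings were lower and 4 higher, with 0 called. The osteoblast lineage and mesenchymal list ranged from 6578 to 7439, 3838 to 4075 and 4099 to 4413, with COL1A1 called higher in the combined knockdown (1.58 ± 0.17, limma adjusted p = 0.019). Array values have no true 0, so no marker can be given as absent. The part of these shifts in the member values was not tested.

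Calls depended on which arrays were in the fit. Without any 1 of the luciferase or combined knockdown arrays, 0 members and 0 of all probe sets were called against luciferase in limma (10 to 20 member probe sets at an unadjusted p under 0.05). Without either H3.Y siRNA array, MRPL42, MRPL35 and MRPL50 were called and MRPL20 was not. Without 1 array at a time MRPL42 differed from luciferase by log2 -2.33 to -1.80, MRPL35 by -1.68 to -1.42, MRPL50 by -1.54 to -1.38 and MRPL20 by -0.91 to -0.75. The count of readings lower in the combined knockdown than in luciferase cells ran from 60 to 66 over the alternatives that kept all 74. Against H3.Y siRNA, leaving out a luciferase or an H3.Y array left MRPL50 as the only called member, and leaving out a combined knockdown array left 0.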

How the data were processed

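Biotin-labelled total RNA was hybridised to 6 Affymetrix arrays, per the labels' protocols. The authors deposited log2 values per probe set, made in oligo (Bioconductor) per the submitters' processing notes. For its version, background correction, summarisation and build, the entry is: not given in the sources used here. A range of 0.687 to 14.0 gave the log base. Values were used as deposited, and 0 value columns were unused. Any scaling of whole arrays hides a change common to all transcripts.

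Probe sets were named from the platform annotation. All 77 member symbols matched RefSeq by Entrez ID, and 0 changed. Comparisons were fitted with limma 3.58.1 in R 4.3.3 (lmFit, eBayes), all 6 arrays and a mean for each group (3 residual and 3.43 prior degrees of freedom, shared by the groups). Two-sided p-values were adjusted per comparison (Benjamini-Hochberg, 33297 probe sets) and called under 0.05. The procedure was tested on simulated data. Lists are described by counts and medians of distinct readings, with no list test. Subunits, bacterial counterparts and places in the ribosome came from a hand-written table.

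Named members were those called, the 6 highest and 6 lowest differences per comparison, and genes with several probe sets. Others named were chosen after their values were seen. From each pathway list came called genes, or else the largest difference. The members and lists were chosen with earlier results of these data known. Alternatives were median centring, a further quantile normalization, a replicate block, a fit to the 4 arrays of a comparison, probe sets above the array median, an intensity trend, each array left out, platform symbols, 1 probe set per gene and subunit by structure, and, chosen after seeing the data, leaving out MRPL42, MRPL35 and MRPL50.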

Additional observations from a re-analysis of the deposited data

How the results depend on the processing

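Called member probe sets, 5 against luciferase in the combined knockdown (MRPL20 counting as 2), were 3 with a replicate block, 3 with only the 4 arrays compared, 8 among probe sets above the array median, and 0 to 3 with 1 array left out. Between the knockdowns, 5 became 1 with only the 4 arrays, 8 above the array median, and 0 to 1 with 1 array left out. After H3.Y siRNA the count was 0 throughout. Over all probe sets, 614 calls in the combined knockdown became 1441 above the array median, 960 with an intensity trend and 0 to 644 with 1 array left out. The 93 after H3.Y siRNA became 0 with only the 4 arrays, 546, 205, and 0 to 629, and the 1554 between the knockdowns became 448 with only the 4 arrays, 2585 above the array median, and 12 to 1641 with 1 array left out. The cause was not tested, apart from fewer arrays or probe sets in the fit.

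Medians in the combined knockdown against luciferase ran, with 1 array left out, from log2 -0.21 to -0.12 for all members, -0.21 to -0.11 for the large and -0.19 to -0.14 for the small subunit, which had -0.18 by structure. After H3.Y siRNA they ran from -0.038 to 0.0034, -0.048 to -0.012 and -0.024 to 0.029, and the small subunit gave 0.040 after quantile normalization. Between the knockdowns they ran from -0.22 to -0.18, -0.22 to -0.17 and -0.24 to -0.18, and the large subunit gave -0.13 without MRPL42, MRPL35 and MRPL50.

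Of 864 values of named members under alternatives, 809 kept their side of the threshold and direction, 43 were no longer called (38 with 1 array left out), 6 were newly called and 6 uncalled ones turned sign. With 1 array left out, MRPL53 ran from -0.11 to 0.27 and MRPL54 from -0.20 to 0.26 in the combined knockdown, and MRPL54 from -0.093 to 0.37 after H3.Y siRNA, each lowest without luciferase replicate 2. The second MRPL36 reading ran from -0.28 to 0.15 after H3.Y siRNA and from -0.27 to 0.16 between the knockdowns, and MRPL17 from -0.0030 to 0.71 between the knockdowns, each set by which H3.Y array was left out.

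Groups share the replicate numbers 1 and 2, and differences between replicates 1 and 2 correlated between groups with r of 0.12 to 0.28, but 2 numbers cannot establish a pairing. Beyond MRPL20 against luciferase, the block ended no called member.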
